A study of Mus musculus with 6 samples.

Results

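Cells sense and repair breaks in their DNA with a set of kinases, end-binding proteins and mediators, and the messages of 9 of them are described here: Atm, Atr, Prkdc, Brca1, Brca2, Rad50, Mre11a (also written Mre11), Nbn and Trp53bp1. They were taken by name as the damage kinases and the core recombination and end-choice genes, and all 9 of 9 were found among the 51912 genes with a matched transcript and among the 13231 genes with enough counts to test. The study sequenced poly(A) RNA from the mouse embryonic stem cell line E14 at successive steps of RAPIDASH, a purification of ribosomes that needs no tag. The groups were 3 resin eluates and 3 sucrose cushion pellets, all from untreated, unmodified cells that were given 100 µg/mL cycloheximide for 3 minutes, a drug that holds ribosomes on their messages. Every pellet was made by spinning a lysate with about 75 µg of RNA through a sucrose cushion, and a part of the resuspended pellet was then bound to and released from a cysteine-charged resin to give the eluate. The question put to each message is whether its share of the RNA differs after the resin from that after the cushion alone.

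The kinases Atm, Atr and DNA-PKcs (encoded by Prkdc) are very long serine and threonine kinases of the PIKK family and are activated at damaged DNA. Atm answers to broken ends held by the complex of Mre11, Rad50 and Nbn, Atr answers to stretches of unpaired DNA at stalled forks, and DNA-PKcs binds ends through the Ku proteins. Brca1 and 53BP1 (encoded by Trp53bp1) oppose each other in deciding whether an end is trimmed for recombination or rejoined directly, and Brca2 acts in the recombination of trimmed ends. Embryonic stem cells divide fast and lean on recombination to repair replication damage.

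The genes are spread over the genome, with Atm, Atr and Mre11a on chromosome 9, Brca1 and Rad50 on 11, and Prkdc on 16, Brca2 on 5, Nbn on 4 and Trp53bp1 on 2. The messages, taken by name but with earlier results of these data known, share a composition. Their coding sequences in GENCODE M21 run from 2118 nt in Mre11a and 2253 nt in Nbn to 9987 nt in Brca2 and 12384 nt in Prkdc, against a median of 1353 nt over 12233 tested coding genes. The coding GC content was lowest in Atr at 41.1% and Brca2 at 41.5%, and highest in Mre11a at 48.1% and Trp53bp1 at 50.8%, where the median coding gene has 53.3%. All 9 lie below that median. At the last position of codons the GC content was 35.5% in Brca2 and 37.6% in Atr, against a median of 61.4%. Rad50 is the richest in A, at 36.3% of its coding bases against a median of 25.4%.

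The 60-base coding stretch with the fewest G and C bases inside a single exon shows this composition. It is printed for the messages with the lowest changes (Atr, Brca2 and Rad50) and the changes nearest to 0 (Mre11a and Trp53bp1), from GENCODE M21 transcripts on build GRCm38, with G and C in capitals.
Atr: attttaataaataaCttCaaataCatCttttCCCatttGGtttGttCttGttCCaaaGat
Brca2: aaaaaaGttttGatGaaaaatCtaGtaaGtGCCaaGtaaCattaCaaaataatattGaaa
Rad50: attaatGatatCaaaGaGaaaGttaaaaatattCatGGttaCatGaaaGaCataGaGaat
Mre11a: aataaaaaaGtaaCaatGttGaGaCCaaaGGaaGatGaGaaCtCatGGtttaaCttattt
Trp53bp1: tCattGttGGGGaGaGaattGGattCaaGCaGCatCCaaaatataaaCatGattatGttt

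The Atr stretch lies in exon 15 at chr9:95878560-95878619 on the plus strand, and 25.0% of its bases are G or C. In Brca2 it lies in exon 11 at chr5:150540551-150540610 on the plus strand, with 21.7% G or C, and in Rad50 in exon 18 at chr11:53674936-53674995 on the minus strand, with 23.3%. The Mre11a stretch in exon 7, at chr9:14799594-14799653 on the plus strand, has 28.3%. The Trp53bp1 stretch in exon 28, at chr2:121198428-121198487 on the minus strand, has 33.3%. When stretches across exon borders are counted too, 3.23% of the 12233 tested coding genes have a stretch as poor in G and C as the lowest of Brca2 or of Rad50, 9.94% as that of Atr and 42.9% as that of Trp53bp1. Longer coding sequences offer more stretches, so these shares also carry the length.

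The libraries held 1.002e+07 to 1.164e+07 estimated counts in the eluates and 7.838e+06 to 1.044e+07 in the pellets, and log CPM values (CPM is the count scaled to a common library size) had correlations over genes of 0.978 to 0.987 for libraries of the same group and 0.94 to 0.967 for an eluate with a pellet. Markers of stem cells were present in all libraries, with 8 of 8 tested and a summed level of 14600 to 14700 TPM (a share of all transcripts, scaled by length) in the eluates and 11100 to 12400 TPM in the pellets. Of 5 fibroblast markers 1 (Thy1) had enough counts to test, at a summed 9.03 to 12.3 TPM in the eluates and 5.72 to 9.07 TPM in the pellets, with Postn at 0 in every library. The 6 markers of differentiated lineages summed to 5.58 to 6.56 TPM in the eluates and 5.5 to 7.2 TPM in the pellets, and 4 of them were tested. By edgeR's test, at an adjusted p under 0.05, 3 of the 8 stem cell markers were higher in the eluates, 2 lower and 3 not called. Thy1 rose in the eluates by 0.70 (adjusted p = 0.0013) and the lineage marker Sox17 by 1.05 (adjusted p = 0.0195). Sox17 averaged only 2.4 CPM in the eluates and 1.17 CPM in the pellets, and the other 3 tested lineage markers were not called. Once trends in GC and length were taken out, as described below, Thy1 (edgeR adjusted p = 0.0898) and Sox17 (edgeR adjusted p = 0.091) lost their calls. The part of the low fibroblast and lineage marker levels in the results below was not tested. No label says whether replicates are separate cultures, and the p-values therefore reflect only how these libraries vary, which may be technical. Both fractions are bulk RNA from lysates, so the values compare steps of the purification and do not describe single cells.

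All 9 messages fell in the eluates. They were called lower by edgeR's quasi-likelihood test at an adjusted p under 0.05, as were 28.2% of all tested genes, and in all 9 every eluate lay below every pellet, as it did for 31.2% of tested genes. Of the 9, 7 fell by at least 1 on the log2 scale, against 8.64% of tested genes. As the 9 were chosen with earlier results of these data known, these comparisons are descriptive. The median log2 fold change of the 9 was -1.42, against 0.0035 over all tested genes, whose 10th and 90th percentiles were -0.96 and 0.58. CPM values are relative to the rest of a library, so a fall is a smaller share of the sequenced poly(A) RNA. The 9 messages together made 28.4 to 32.3 TPM in the eluates and 61.0 to 69.0 TPM in the pellets. Each change is given on the log2 scale, eluate over pellet, ± SE and with edgeR's adjusted p, after the CPM of the 3 libraries per group.

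**Figure D1:**
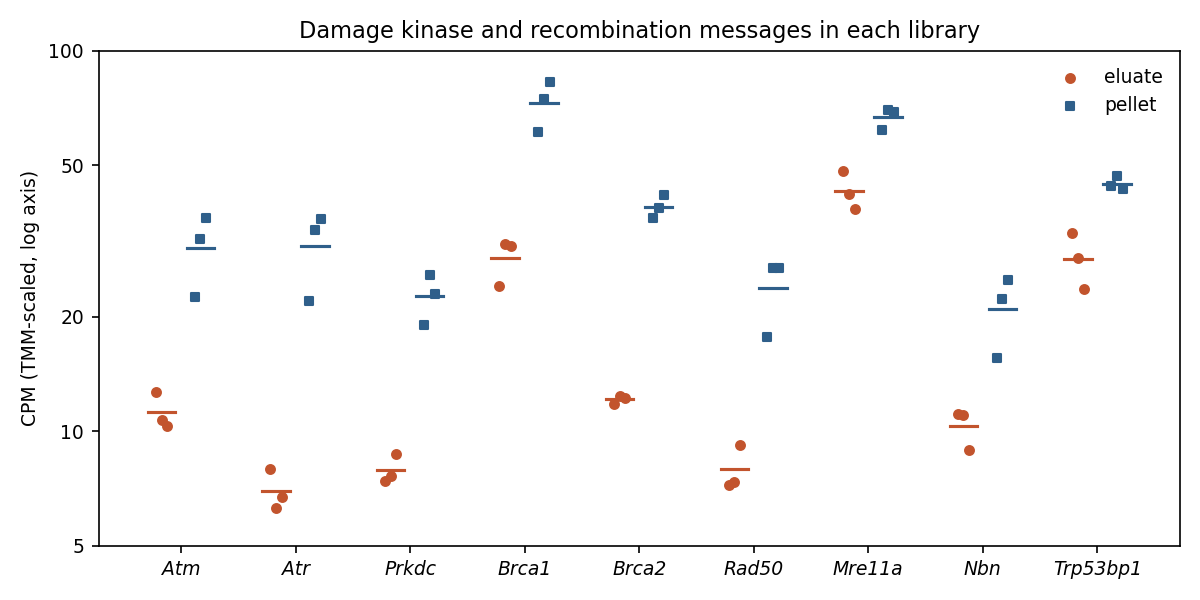
CPM of each message (log axis) in the 3 eluates (circles) and 3 pellets (squares), with a bar at the group mean. In all 9 messages the eluates lie below the pellets, with the widest gap for Atr (6.97 CPM on average in eluates, 30.6 CPM in pellets) and the narrowest for Mre11a and Trp53bp1.

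Among the kinases, Atr had the lowest change of the 9. Its level was 7.93, 6.28 and 6.71 CPM in eluates 1 to 3, against 22.0, 33.7 and 36.2 CPM in pellets 1 to 3. The eluates were close together, and pellet 1 was the lowest pellet. This is a change of -2.13 ± 0.18 (adjusted p = 9.15e-07), or 22.8% of the pellet level, and 0.295% of tested genes had a lower change. Prkdc had 7.41, 7.64 and 8.71 CPM in the eluates and 19.0, 25.8 and 23.0 CPM in the pellets. The groups are far apart here too, and the change was -1.52 ± 0.15 (adjusted p = 7.96e-07). Atm had 12.7, 10.7 and 10.3 CPM in the eluates, against 22.5, 32.0 and 36.3 CPM in the pellets. Its pellets spread more widely than its eluates, and it changed by -1.42 ± 0.17 (adjusted p = 8.76e-06), which leaves 37.3% of the pellet level.

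Within the end-binding complex, Rad50 had the lowest change and Mre11a the one nearest to 0. Rad50, the long coiled-coil ATPase that bridges ends, had 7.23, 7.37 and 9.21 CPM in the eluates and 17.7, 26.8 and 26.9 CPM in the pellets. It changed by -1.59 ± 0.17 (adjusted p = 3.09e-06), with pellet 1 again below the other pellets. Nbn, the adaptor that brings in Atm, had 11.1, 11.0 and 8.91 CPM in the eluates, against 15.6, 22.3 and 24.9 CPM in the pellets. Its highest eluate lies not far below pellet 1, and the change was -1.01 ± 0.17 (adjusted p = 0.000134). Mre11a, the nuclease, had 48.3, 41.9 and 38.3 CPM in the eluates and 61.8, 69.8 and 69.1 CPM in the pellets. The groups do not overlap, and at -0.64 ± 0.096 (adjusted p = 4.44e-05) it kept 64.1% of the pellet level.

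Of the mediators, Brca2 had the lowest change and Trp53bp1 the one nearest to 0. Brca1, a ubiquitin ligase that favours end trimming, had 24.1, 31.0 and 30.7 CPM in the eluates and 61.2, 74.8 and 82.8 CPM in the pellets. It changed by -1.35 ± 0.12 (adjusted p = 1.6e-06). Brca2 had 11.8, 12.4 and 12.2 CPM in the eluates, against 36.3, 38.7 and 41.8 CPM in the pellets. It has the tightest eluates and the smallest adjusted p of the 9, with a change of -1.68 ± 0.11 (adjusted p = 4.04e-08), so 31.2% of the pellet level was left. Trp53bp1, which protects ends from trimming, had 33.1, 28.5 and 23.7 CPM in the eluates and 44.2, 46.8 and 43.2 CPM in the pellets. Its groups are separate, and it changed by -0.65 ± 0.11 (adjusted p = 0.000165).

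With limma voom the 95% interval of Atr was -2.58 to -1.62, and those of Mre11a (-0.86 to -0.43), Trp53bp1 (-0.92 to -0.41) and Nbn (-1.38 to -0.59) lay wholly above it. The intervals of Brca1, Brca2, Rad50, Prkdc and Atm overlapped with each other and with that of Atr. Pellet 1 was the lowest pellet for 8 of the 9, all but Trp53bp1. The share of all genes with pellet 1 lowest is not given here. Over all tested genes, log CPM of pellet 1 had correlations of 0.961 to 0.967 with the eluates. For pellets 2 and 3 these were 0.94 to 0.953. Without pellet 1 the changes ran from -2.32 for Atr to -0.66 for Trp53bp1, and all 9 were called lower, as were 29.9% of tested genes. The authors' deposited table lists all 9 as lower at its adjusted p under 0.05, with log2 fold changes of -2.03 for Atr, -1.63 for Brca2, -1.53 for Rad50, -1.45 for Prkdc and -1.34 for Atm. That table holds only genes under this threshold and is not a separate set of libraries. When DESeq2 was run here on the same 6 libraries, 23.3% of genes were lower. In the authors' deposited table Brca1 has -1.32, Nbn -0.94, Trp53bp1 -0.65 and Mre11a -0.61.

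Levels per length put the messages in another order than the counts. Mre11a was the most abundant in the eluates at 12.4 ± 1.56 TPM (SD, n = 3) and in the pellets at 19.9 ± 0.66 TPM. Next in the eluates came Nbn at 4.68 ± 0.54 and Brca1 at 4.39 ± 0.56 TPM, whose ranges overlap, then Trp53bp1 at 2.87 ± 0.49 and Rad50 at 1.63 ± 0.24 TPM. Brca2 at 1.25 ± 0.0051 and Atm at 1.24 ± 0.16 TPM overlap as well, and Atr at 0.97 ± 0.14 and Prkdc at 0.66 ± 0.062 TPM were the scarcest. In the pellets Brca1 at 11.6 ± 1.12 TPM came before Nbn at 9.58 ± 1.56 TPM, with overlapping ranges. Rad50 (4.98 ± 0.73 TPM), Trp53bp1 (4.74 ± 0.36 TPM), Atr (4.23 ± 0.74 TPM), Brca2 (4.11 ± 0.29 TPM) and Atm (3.34 ± 0.57 TPM) formed a run in which each overlaps the next. Prkdc was last there too, at 1.91 ± 0.12 TPM. Atr stood below both Brca2 and Atm in the eluates, while in the pellets its mean was above theirs.

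Messages of proteins that work together were then set against each other. The TPM ratio of a message to that of a partner within the same library does not depend on the library's scaling, and 11 such ratios were tested by exact permutation of the libraries, two-sided, where 3 against 3 cannot go below 0.1. For 10 of the 11 the eluates and pellets did not overlap (exact p = 0.1 each, adjusted 0.11), and for 9 of these the ratio was lower in the eluates. Groups that do not overlap are common for these numerators: set over each of 13138 other tested genes, they gave them for 68.4% of genes with Trp53bp1 to 96.7% with Atr, so the count of 10 is near that background and not particular to the partners. The ratio of Atr to Atrip, the subunit that brings Atr to unpaired DNA, was 0.11, 0.0982 and 0.0942 in the eluates and 0.367, 0.508 and 0.596 in the pellets. That is a log2 difference of -2.26, as Atrip itself was at 0.24 ± 0.11 and not called (adjusted p = 0.078). For Rad50 over Mre11a the ratio was 0.106, 0.126 and 0.169 in the eluates, against 0.202, 0.273 and 0.276 in the pellets. Nbn over Mre11a gave 0.36, 0.415 and 0.363 in the eluates and 0.391, 0.496 and 0.558 in the pellets, the pair of groups that overlaps (exact p = 0.2, adjusted 0.2).

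Prkdc fell relative to both Ku subunits. Over Xrcc6 (Ku70) its ratio was 0.0192, 0.018 and 0.0255 in the eluates and 0.0411, 0.0417 and 0.0434 in the pellets, and Xrcc6 changed by -0.38 ± 0.074 (adjusted p = 0.000451). Over Xrcc5 (Ku80) the log2 difference was smaller, at -0.53, since Xrcc5 changed by -0.96 ± 0.076 (adjusted p = 1.7e-07). Brca1 over Bard1, its partner in the ubiquitin ligase, was at 0.656, 0.916 and 1.07 in the eluates and 1.15, 1.54 and 1.74 in the pellets, a log2 difference of -0.75. Brca2 over Palb2, the protein that links it to Brca1, differed by -1.24 on the log2 scale. In the other direction, Trp53bp1 over Rif1, its effector at ends, was 0.522, 0.378 and 0.408 in the eluates and 0.257, 0.18 and 0.162 in the pellets, since Rif1 changed by -1.90 ± 0.22 (adjusted p = 0.0011). Of the 13138 genes set under Trp53bp1, 5.46% gave eluates wholly above pellets. Between the kinases, Atr over Atm was 0.793, 0.742 and 0.826 in the eluates, against 1.23, 1.32 and 1.25 in the pellets, so the more abundant kinase message per length differs between the fractions.

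**Figure D2:**
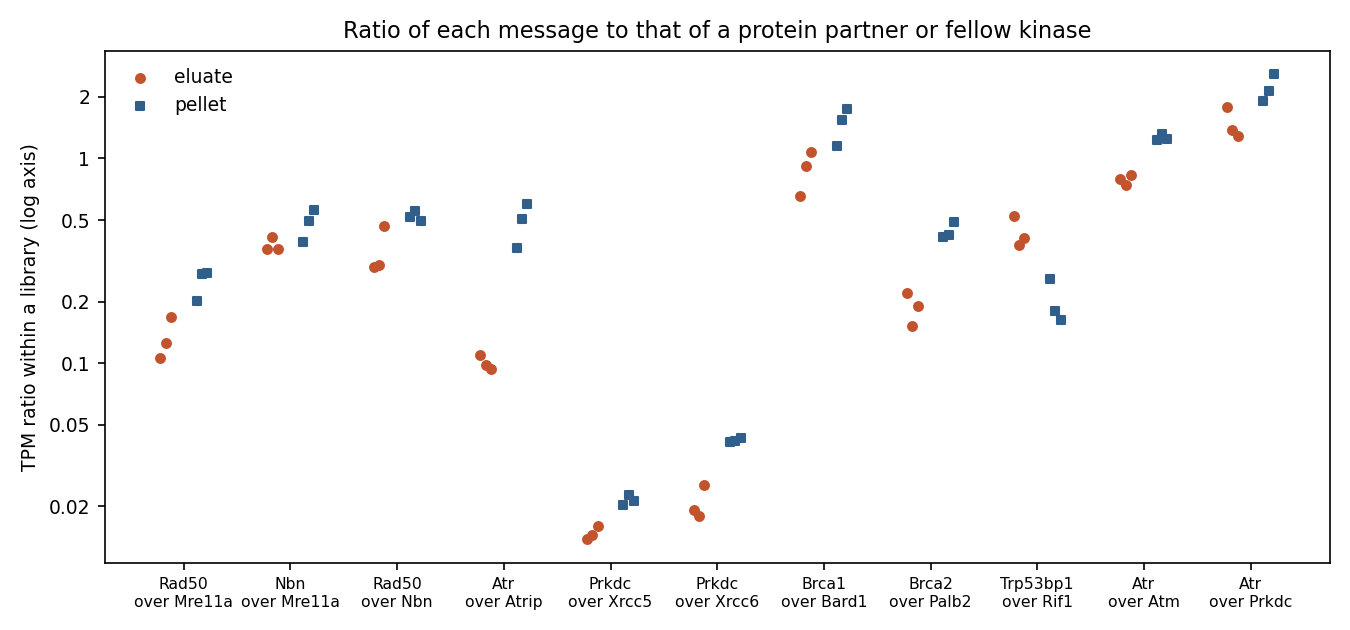
TPM ratio within each library (log axis) for 11 pairs of messages, eluates as circles and pellets as squares. The groups are apart in 10 pairs, furthest for Atr over Atrip (0.0942 to 0.11 in eluates, 0.367 to 0.596 in pellets), and Trp53bp1 over Rif1 is the pair that is higher in the eluates.

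The changes of the 9 messages lie along the composition of the messages. Spearman's rho over the 9 between log2 fold change and coding GC content was 0.912, and between log2 fold change and coding length it was -0.6. These describe 9 genes of the same 6 libraries. When all tested genes were put into 10 equal bins by transcript GC, the lowest bin, which holds Atr, had a median log2 fold change of -0.94, and 79.8% of its genes were lower. The median was -0.56 in bin 2, which holds Atm, Prkdc, Brca2 and Nbn, and -0.37 in bin 3, with Brca1, Rad50 and Mre11a. Of the 9, 7 fall in the last of 10 bins by coding length, where the median log2 fold change was -0.51 and 58.6% of genes were lower.

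**Figure D3:**
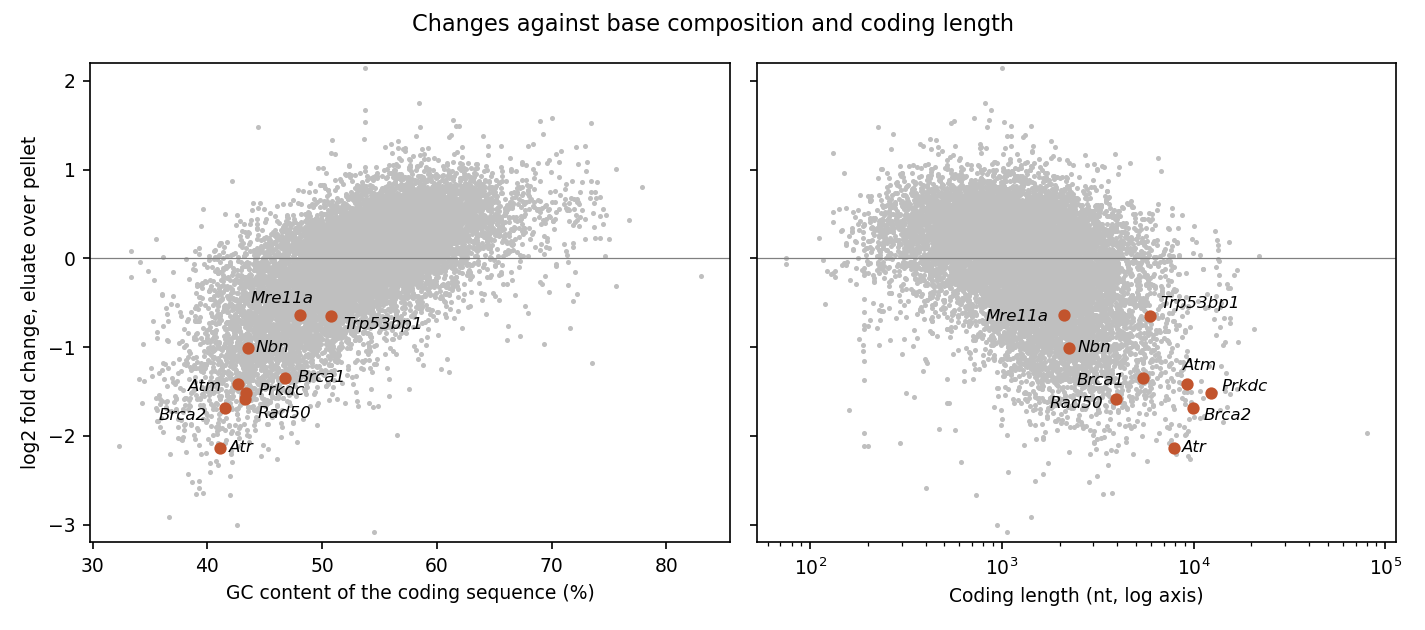
Log2 fold change of eluate over pellet against coding GC content (left, %) and coding length (right, nt, log axis) for 12225 tested coding genes (grey), with the 9 messages in colour and 8 genes outside the vertical range. All 9 have a change under 0 and a coding GC content under the median of 53.3%, and Atr (41.1% GC) is lowest.

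In a second fit each library's smooth trend over transcript GC and length was taken out. There 8 of the 9 were still lower at an adjusted p under 0.05, against 15.9% of all tested genes, with a median of -0.55 for the 9 and 0.0135 for all genes. Atr was at -1.02 ± 0.13 (adjusted p = 6.78e-07) and Rad50 at -0.96 ± 0.14 (adjusted p = 5.22e-06). The value of the trend at the GC and length of Rad50 was -0.61, the smaller part of its change of -1.59. Brca1 was at -0.71 ± 0.095 (adjusted p = 3.44e-06), Brca2 at -0.56 ± 0.10 and Nbn at -0.55 ± 0.14. For 6 of the 9, Atm, Atr, Prkdc, Brca2, Mre11a and Trp53bp1, the trend was the larger part of the change. Prkdc was at -0.40 ± 0.13 (adjusted p = 0.0205) with a trend of -1.11, and Atm at -0.36 ± 0.12 (adjusted p = 0.0212) with a trend of -1.05. Mre11a was at -0.23 ± 0.080 (adjusted p = 0.0297) with a trend of -0.41, and Brca2 had a trend of -1.12 and Atr of -1.09.

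Trp53bp1 was the exception. Its value without the trend was -0.007 ± 0.095 (adjusted p = 0.968), and its trend of -0.65 is as large as its change. With GC alone removed it was still lower, at -0.42 (adjusted p = 0.000777), and with length alone removed it was at 0.044 (adjusted p = 0.765). Its main transcript has 9621 nt, of which 5907 nt are coding and 3582 nt follow the stop codon, the longest such tail of the 9. Nbn behaved the other way, at -0.47 with GC removed and -0.98 (adjusted p = 0.000189) with length removed.

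**Figure D4:**
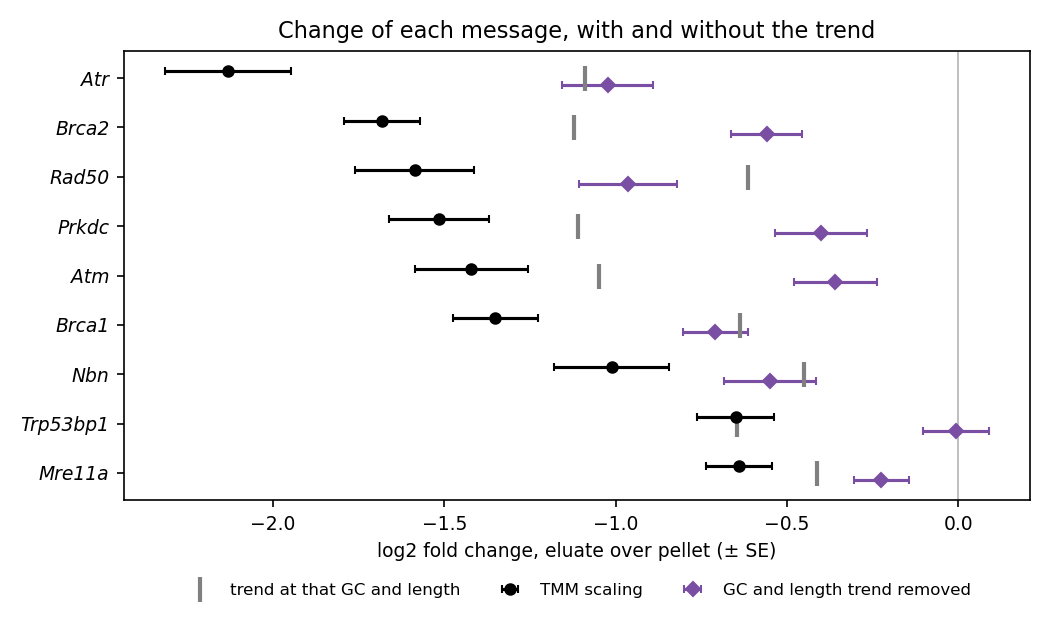
Log2 fold change of eluate over pellet ± SE for each message under TMM scaling (circles) and after removal of the composition trend (diamonds), with the value of the trend for that message as a grey tick. Atr (-1.02) and Rad50 (-0.96) are lowest without the trend, and Trp53bp1 (-0.007) lies at 0.

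Most of the 9 genes are counted from few transcripts. Brca1, Nbn, Prkdc and Rad50 have 1 matched transcript each and the others 2. For Mre11a the main transcript took 77.6%, 75.1% and 78.5% of the counts in the eluates and 78.4%, 74.8% and 75.5% in the pellets, so its make-up was alike in both fractions. For Atm the longer transcript took 2.48%, 0 and 10.4% of the gene's counts in the eluates, against 36.1%, 17.7% and 31.9% in the pellets. It was called lower in a test of transcripts at a log2 fold change of -4.13 (adjusted p = 0.0399), and the main Atm transcript at -1.02 (adjusted p = 0.0334). These Atm transcripts have close lengths of 9819 and 9787 nt, and how well the reads tell them apart was not tested. The share of all transcripts called lower is not given here. For Atr the second transcript took 26.2%, 50.0% and 0 of the gene's counts in the eluates, and 0, 22.8% and 0 in the pellets. Such estimated splits thus varied between libraries of the same group. The Brca2 transcripts share a coding length of 9987 nt, and the 1 that held 100%, 100% and 94.7% of Brca2 counts in the pellets was at 81.3%, 78.7% and 0 in the eluates. The Brca2 sum over both transcripts is the value used.

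The wider repair pathways went both ways. Of 102 other genes in 6 lists, 101 were tested, of which 45 were lower, 25 higher and 31 not called, and the median log2 fold change was -0.21. That is 44.6% lower, against 28.2% of all tested genes, and 24.8% higher, against 24.5%, and 52.7% of all genes were called in either direction. With log2(TPM + 1) and limma the split was 44 lower and 13 higher, where 27.2% of all genes were lower. With the GC trend removed the split was 30 lower and 27 higher, where 18.8% of all genes were lower and 22.3% higher. With the GC and length trend removed the split was 27 lower and 20 higher. In that fit 15.9% of all genes were lower and 19.1% higher, the shares to set beside the list counts below. None of the 101 had a lower change than Atr.

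Damage signalling had 10 of 21 lower and 4 higher (median -0.23). Topbp1, which switches on Atr, fell by 0.86 (85.7 ± 7.27 CPM in the eluates and 156 ± 13.8 CPM in the pellets, SD, n = 3 each, edgeR adjusted p = 8.49e-07). H2afx, the histone that the kinases mark around a break, rose by 0.98 ± 0.079 (1270 ± 70.3 CPM in the eluates and 644 ± 70.9 CPM in the pellets, edgeR adjusted p = 2.3e-07). Tipin, a fork protection factor, was at -0.21 ± 0.11 and not called (adjusted p = 0.129). With the GC and length trend removed the list had 6 lower and 7 higher, Tipin was called higher at 0.33 (edgeR adjusted p = 1.2e-05), and Topbp1 was at -0.33 and H2afx at 0.31.

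Of 32 homologous recombination genes, 12 fell, 5 rose and 15 were not called (median -0.18). Helb, a DNA helicase, changed by -1.02 ± 0.10 (edgeR adjusted p = 8.65e-07), and Swi5, a recombination repair factor, rose by 0.38 ± 0.061 (edgeR adjusted p = 8.94e-05). Bccip, a Brca2-binding protein, was not called, at -0.11 ± 0.074 (adjusted p = 0.218). With the trend removed 6 of the 32 were lower and 7 higher, where 15.9% of all genes were lower and 19.1% higher. Helb at -0.72 and Swi5 at 0.15 were still called.

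In end joining 7 of 13 fell and 3 rose (median -0.43), with the smallest adjusted p for Xrcc5, Parp1, a sensor of broken strands, at -0.43 ± 0.069 (edgeR adjusted p = 7.99e-05), and Poll, a repair polymerase, higher at 0.47 ± 0.12 (edgeR adjusted p = 0.00285). With the trend removed 4 were lower and 0 higher, Xrcc5 was at -0.60, and Poll lost its call at 0.091 (adjusted p = 0.544, edgeR). Partners of Brca1 and 53BP1 went both ways, with 7 higher and 5 lower of 12 tested (median 0.30). Rif1 was the lowest of them, while Mad2l2, a shieldin subunit, rose by 0.69 ± 0.095 (edgeR adjusted p = 1.92e-05). Dynll1, a small dynein light chain that binds 53BP1, rose by 0.38 ± 0.064, and Nudt16l1, which masks 53BP1, by 0.50 ± 0.076. With the trend removed 1 was lower and 4 higher, Rif1 was at -0.61, Dynll1 at 0.17 was still called, and Mad2l2 at 0.17 (edgeR adjusted p = 0.0994) and Nudt16l1 at 0.053 (edgeR adjusted p = 0.552) were not. Of 15 Fanconi anaemia genes, which unhook DNA crosslinks, 7 fell and 5 rose (median -0.38). Fancd2 changed by -1.14 ± 0.11 (edgeR adjusted p = 6.57e-07), Faap20 rose by 0.76 ± 0.11 and Ube2t by 0.28 ± 0.11. With the trend removed 7 were lower and 2 higher, Fancd2 was at -0.63 and Ube2t at 0.26, and Faap20 lost its call at 0.20 (edgeR adjusted p = 0.121).

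**Figure D5:**
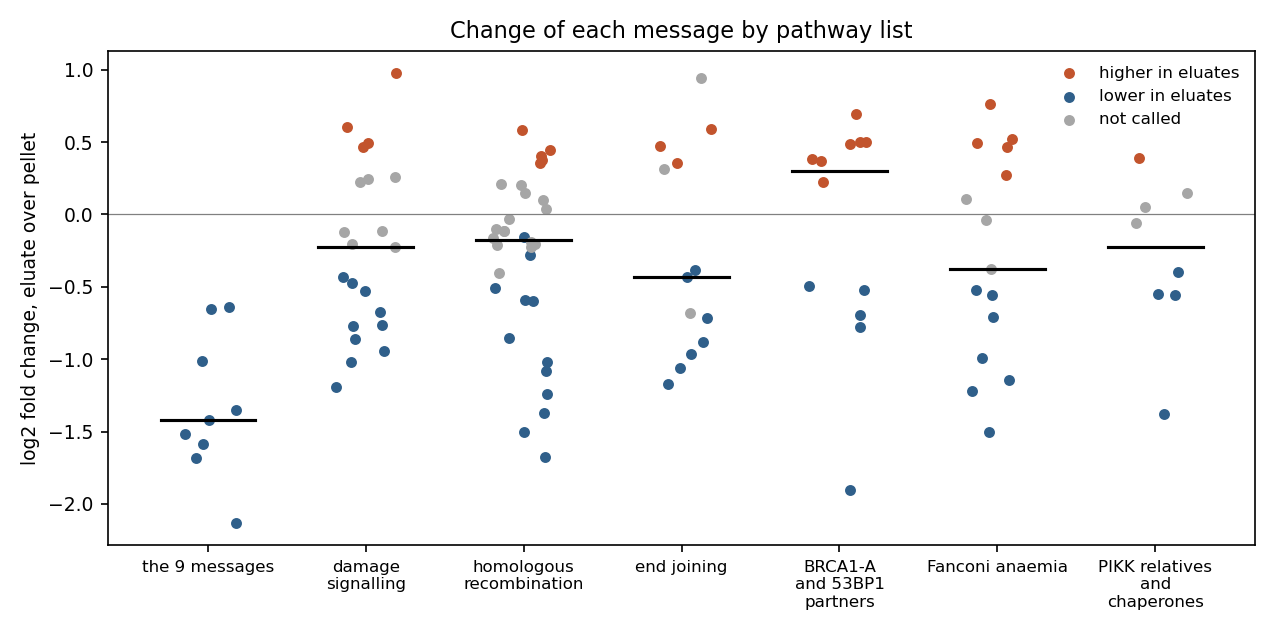
Log2 fold change of eluate over pellet for the 9 messages and for 6 lists of other repair genes, coloured by the edgeR call, with a bar at each median. The 9 lie wholly below 0 with a median of -1.42, while the lists have members on both sides and medians from -0.43 to 0.30.

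Of 8766 genes with a mean of at least 10 CPM and not among the 9, Setd2 came nearest to them. The measure was the distance of a gene's centred log2 CPM over the 6 libraries from the mean of the 9. Setd2 is a histone methyltransferase with a coding length of 7611 nt and 43.9% coding GC. Its Euclidean distance was 0.0528 and its change -1.34 (edgeR adjusted p = 2.56e-07). G2e3 (distance 0.0925, change -1.26) and Mtdh (distance 0.111, change -1.28) came next.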

How the data were processed

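Poly(A) RNA of 6 libraries was analysed, 3 eluates and 3 pellets, grouped by sample title. The submitters' processing notes name build GRCm39 and the tools Salmon 1.10.3, STAR 2.7.11b, DESeq2 1.44.0 and cutadapt 4.7. Settings and annotation release: not given in the sources used here. As the file headers show, the authors' Salmon files give for each transcript an estimated count, a TPM, and lengths. The authors' deposited table gives mean normalized counts as a signal, log2 fold changes, the test statistic as a score, and p-values. It lists genes whose adjusted p was under 0.05.

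Of 84226 transcripts, 76858 were matched by identifier to GENCODE M21 (GRCm38), which gave names, lengths, GC content and the printed sequences. Transcript versions differ from the files', and 75250 have the same length. Unmatched transcripts held 1.63% to 2.35% of counts. Estimated counts were summed per gene, rounded and tested with edgeR 4.0.16 in R 4.3.3 (TMM, default low-count filter, robust quasi-likelihood, Benjamini-Hochberg over 13231 genes). The SE was taken as the size of the change over the root of F. The trend fit used natural splines with 5 degrees of freedom in GC and log length per library as an offset. limma 3.58.1 and DESeq2 1.42.0 served as alternatives, with Python 3.11.15, scipy 1.17.1 and matplotlib 3.10.9. On counts simulated for this comparison with 13034 genes and 50 changed at each size, edgeR found 56% of the genes set to change 1.5-fold, 86% of those set to 2-fold, 96% for 3-fold and 100% for 4-fold. Of its 178 calls, 9 were false. The simulation changed few genes and held no trend in GC or length, whereas 52.7% of genes were called in the data. Its rates therefore do not carry over to the calls reported here.

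The 9 genes and the lists were chosen with earlier results of these data known. In each list the called gene with the smallest adjusted p in each direction and the 2 with the highest TPM were named. Partners, Paxip1, Trrap and Mtor were named outside this rule, after their values had been seen. The partner pairs and the division by coding length were added after values had been seen.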

Additional observations from a re-analysis of the deposited data

How the results depend on the processing

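All 9 messages were called lower under DESeq2's test and size factors, limma voom, both TPM fits, other count filters, protein-coding transcripts alone, a threshold of 0.01, kept unmatched transcripts and every removal of libraries. At an adjusted p under 0.05, the share of all genes called lower was 15.8% to 29.9% under the alternative fits, those with a trend removed included. The share of all genes lower at the threshold of 0.01 is not given here. Of 234 values over 26 settings, 230 kept their direction and call. The exceptions were Trp53bp1 with the trend in GC and length removed (-0.007), with that and the replicate block (-0.013, adjusted p = 0.927) and with length alone removed (0.044, the reversed value), and Brca2 counted from its main transcript (-2.56, adjusted p = 0.135).

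The count over all genes, 6977, was 4633 with the GC and length trend removed (2103 lower) and 4592 with the block as well, and 4611 to 7761 when libraries were left out. The lowest is without both libraries numbered 3. The count of 70 in the repair lists was 46 with the block and the trend removed, and 54 to 80 without libraries. With GC alone removed 2487 genes were lower, and with log2(TPM + 1) or log2(TPM + 0.1) 1889 or 1886 were higher, against 3241. Same-numbered eluates and pellets had correlations of 0.0698, 0.151 and -0.0102 between their deviations from the group means, and the labels do not tie an eluate to the pellet of its number, so the samples were not treated as pairs. With the replicate block all 9 stayed lower, 7076 genes were called, and 73 in the lists. The cause of these shifts was not tested. Estimated counts per eluate were 67 to 146 for Atm and Atr, 84 to 87 for Prkdc and 81 to 92 for Rad50. Nbn had 89 to 127 and Brca2 122 to 136, so depth limits how closely these messages can be ranked.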

Other observations

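The repair genes differed by coding length, as did all tested coding genes. Of 25 listed genes with a coding sequence over 3000 nt, 23 were lower and 1 (Paxip1, named after its values were seen) was higher, and of 76 shorter genes 22 were lower and 24 higher. Over all tested coding genes 55.3% of those over 3000 nt were lower, and 25.1% of the shorter ones. The count of 22 among the shorter repair genes is thus near its background. The shares of all genes higher on each side of 3000 nt are not given here. In 10 bins by coding length, 46.3% of genes were higher in the shortest bin and 5.23% in the longest. These counts describe the genes, and the division was chosen after seeing the data.

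The PIKK relatives of the damage kinases were lower as well. Smg1, a PIKK of nonsense-mediated decay with a coding length of 10974 nt, changed by -1.38 ± 0.13 (edgeR adjusted p = 4.33e-06). Trrap and Mtor were named after their values were seen. Trrap, with a coding length of 11541 nt and 54.1% coding GC, was at -0.56 ± 0.095 (edgeR adjusted p = 0.00015). Mtor, with 7647 nt and 54.9% coding GC, was at -0.40 ± 0.085 (edgeR adjusted p = 0.000985). Of the 8 genes in that list, 4 fell and 1 rose (median -0.23). The one that rose was Ruvbl2, a subunit of the chaperone for these kinases, at 0.39 ± 0.077, while Ruvbl1 was at 0.15 ± 0.073 and not called (edgeR adjusted p = 0.0928). With the GC and length trend removed 3 were lower and 0 higher, where 15.9% of all genes were lower and 19.1% higher. Smg1 was then at -0.31 and Mtor at -0.27, both called, Trrap was not called at -0.16 (edgeR adjusted p = 0.129), and Ruvbl2 was at -0.021 (edgeR adjusted p = 0.813).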
